A study of Mus musculus with 4 samples.

Results

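The FGF21 and FGF15/19 receptor system was examined in AML12 cells after knockdown of Topors, through 8 genes of the 52630 in the deposited table: the co-receptor gene Klb, the receptor genes Fgfr1, Fgfr2, Fgfr3, Fgfr4 and Fgfrl1, and the ligand genes Fgf21 and Fgf1. They were taken by symbol. Klb was selected on its measured TPM, which was lower in the knockdown, so its difference is a description with no test, and the other 7 were taken for their place in the system. AML12 is a mouse hepatocyte line established from mice carrying a human TGF-alpha transgene driven by a metallothionein promoter, so both groups share that transgene. Both groups were also grown with 0.1 µM dexamethasone, a glucocorticoid, with an insulin, transferrin and selenium supplement, and in 10% fetal bovine serum. Cells received 200 µl of concentrated lentivirus carrying a control hairpin (shCtrl, 2 libraries) or a hairpin against Topors, an E3 ligase for ubiquitin and SUMO (shTopors, 2 libraries), with a change of medium at 24 hours. RNA was collected at day 5 and sequenced after ribosomal RNA depletion. Whether a group's libraries are separate cultures is not in the labels, and so the p-values here speak only for the spread among these libraries, which may be technical. Levels are TPM, relative transcript abundances that are scaled by length and library and keep no depth, so the number of reads behind a value is unknown.

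FGF receptors are tyrosine kinases that signal through the adaptor FRS2 to the RAS and ERK cascade, and most FGFs bind them together with heparan sulfate. The endocrine FGFs bind heparan sulfate weakly and need a Klotho protein instead. Beta-Klotho, the product of Klb, joins FGFR1c to receive FGF21, and FGFR4 to receive FGF15 (FGF19 in humans), the ileal hormone that represses bile acid synthesis in hepatocytes. FGF21 itself is a hormone made mainly by the liver during fasting and cell stress. FGFRL1 has an FGF-binding extracellular part and lacks the kinase.

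The stretches before the RefSeq starts are shown first for the 4 genes with the largest log2 differences. There Klb and Fgfr2 lack the short motifs that Fgfr3 and Fgfrl1 carry. Of the 7 members looked up (Fgf1 was not looked up), 6 had a start in the RefSeq promoter table for GRCm38.p6, the assembly called mm10, and Fgfr1 did not. The 250 bases before each start were searched on both strands for 8 motifs. The general promoter elements were the GC box, searched as GGGCGG, and the TATA box, searched as TATAAA. For factors of the liver the letters were TGTTTAC for forkhead proteins and CAAAGTCCA for HNF4. For factors that answer growth and nutrient signals they were TGACTCA for AP-1 and CCGGAAGT for ETS proteins, the factor class that the ERK cascade acts on. The E-box was searched as CACGTG, and the cyclic AMP response element, CRE, was searched as TGACGTCA. Capitals mark matches, of either strand, and each stretch holds no base that GENCODE M21 places in an exon of that gene.
Klb, plus strand, chr5:65348161-65348313: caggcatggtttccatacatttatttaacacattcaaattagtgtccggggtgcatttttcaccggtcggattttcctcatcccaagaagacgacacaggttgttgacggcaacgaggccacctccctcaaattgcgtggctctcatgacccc
Fgfr3, plus strand, first of 2 starts, chr5:33721474-33721673: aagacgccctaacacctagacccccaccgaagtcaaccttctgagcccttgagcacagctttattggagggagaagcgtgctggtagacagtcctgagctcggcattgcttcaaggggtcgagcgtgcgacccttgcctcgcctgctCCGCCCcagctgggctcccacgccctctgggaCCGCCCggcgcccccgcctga
Fgfr2, minus strand, chr7:130266809-130267058: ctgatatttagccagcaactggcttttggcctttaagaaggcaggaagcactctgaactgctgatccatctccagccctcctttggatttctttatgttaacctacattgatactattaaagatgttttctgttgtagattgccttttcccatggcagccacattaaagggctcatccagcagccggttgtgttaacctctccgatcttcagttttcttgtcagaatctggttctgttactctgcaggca
Fgfrl1, plus strand, chr5:108693979-108694228: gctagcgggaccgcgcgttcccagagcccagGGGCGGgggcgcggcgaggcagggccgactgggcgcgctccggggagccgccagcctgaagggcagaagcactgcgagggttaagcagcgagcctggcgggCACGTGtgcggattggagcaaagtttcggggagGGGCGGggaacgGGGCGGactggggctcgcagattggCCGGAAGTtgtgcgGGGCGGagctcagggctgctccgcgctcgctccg
The full Klb window was 48% G and C with 9 CpG pairs, and the Fgfr2 window was 44% with 2, against medians of 52.4% and 6 over 32851 windows of the same length. The windows of the first Fgfr3 start, Fgfr4 and Fgfrl1 were at 66.8%, 64% and 73.6%, with 19, 15 and 30 CpG pairs. That of the second Fgfr3 start was at 72.8% with 24. GGGCGG was found in the windows of Fgfr3, Fgfr4, Fgfrl1 and Fgf21 and in 32.7% of all windows. CACGTG was in the windows of Fgfrl1 and Fgf21 (6.02% of all), where in Fgf21 it overlaps a GC box, CCGGAAGT in that of Fgfrl1 (2.88%), and TATAAA in that of Fgf21 (12.4%). No member window held the forkhead, HNF4, AP-1 or CRE letters, which were in 3.17%, 0.384%, 4.46% and 1.55% of all windows. By GENCODE M21 the Fgfr2 and Fgfrl1 windows lie inside the gene, so the contrast between genes rests on the RefSeq starts. These are letters in a window and not binding sites.

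Topors, the targeted gene, was at 21.9 and 29.2 TPM in shCtrl against 4.31 and 4.65 TPM in shTopors, 5.71-fold lower by the group means (log2 difference -2.27, SE 0.288, adjusted p = 0.0823 in limma), and each library went with its label. Hepatocyte markers were unevenly present in both groups. Ttr was at 1119 and 2168 TPM in shCtrl against 195 and 410.3 TPM in shTopors, Hnf4a was between 95.3 and 179 TPM, and the mean of Fgb and of Tat was under 1 TPM. Krt18 went the other way, with 2069 and 1719 TPM in shCtrl against 3239 and 2168 TPM in shTopors. Of 12 hepatocyte markers 10 were tested, of which 3 were lower and 1 higher with no overlap and 6 overlapped. The shares of all genes tested were 35.2% lower and 14.6% higher with no overlap. None of the 10 markers passed in limma, and their median log2 difference was -0.13. Bile duct markers were present too, with a summed level of 1011 and 1457 TPM in shCtrl against 1911 and 1123 TPM in shTopors, of which Krt19 made up 1396 TPM in shTopors 1. Summed markers of stellate cells and fibroblasts ran from 0.367 to 1.20 TPM over the 4 libraries, those of endothelium from 0.0689 to 0.234 TPM and those of leukocytes from 0.946 to 1.65 TPM, with Lrat, Col3a1, Thy1, Cdh5, Lyve1 and Adgre1 listed at 0 throughout. The knockdown libraries differed from each other, as Alb showed at 4.15 TPM in shTopors 1 and 402 TPM in shTopors 2 (a gene singled out on seeing these values). What part these differences between libraries and in markers have in the results on the receptor system was not tested. In bulk RNA, fewer cells carrying a transcript and less of it per cell cannot be told apart.

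In control cells the receptor side of the system was Fgfr2, Fgfr3, Fgfr4 and Klb, and Fgf1 was the ligand transcript above 1 TPM. In both shTopors libraries Klb and Fgfr3 were lower by the most, Fgfr2 and Fgfrl1 by less, and Fgfr4 differed between the 2 knockdown libraries. Klb was given no test. None of the 5 other members tested passed in limma across the 13509 genes that averaged 1 TPM or more, where a call is a Benjamini-Hochberg adjusted p under 0.05. Of all genes tested, 0.037% were called in either direction, 0.0296% as lower and 0.0074% as higher in shTopors. At an unadjusted p under 0.05 there were 3 of these 5 tested members, and 14.7% of all genes. Fgfr1 and Fgf21 did not reach the filter. The other 6 members were above 1 TPM in all 4 libraries. Klb, selected on its lower level, is left out of the next counts. In each of the 5 besides Klb both shTopors values lay below both shCtrl values, as they did in 35.2% of all genes tested. The shTopors mean was at least 2-fold lower for 3 of these 5 (Fgfr3, Fgfrl1 and Fgfr2), as it was for 8.56% of all genes tested. The median log2 difference of all genes tested was -0.18 and was -0.02 after median-of-ratios scaling, so a member's difference is also given as its excess over that median.

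**Figure D1:**
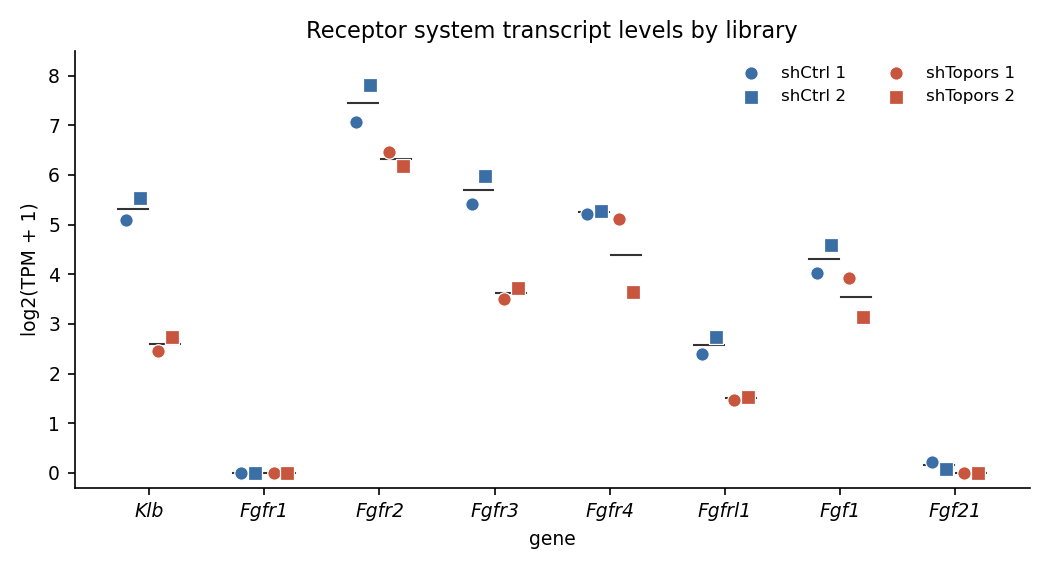
Transcript level of the 8 genes as log2(TPM + 1), by library, with circles for replicate 1, squares for replicate 2 and a line at each group's mean. Klb and Fgfr3 sit lower in both shTopors libraries, Fgfr4 in shTopors 1 lies next to the controls, and Fgfr1 is listed at 0 in all 4 libraries.

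Klb encodes the membrane co-receptor without which FGF21 and FGF15 signal poorly. It was at 33.0 and 45.6 TPM in shCtrl against 4.46 and 5.66 TPM in shTopors. Both knockdown libraries were low and near each other, and the gap to the lower control was far wider than the gap between the controls. The means were 39.3 ± 8.88 and 5.06 ± 0.849 TPM (SD, n = 2), a 7.78-fold lower level. As a difference of log2(TPM + 1), a scale that makes differences of low genes look smaller, this was -2.72, an excess of -2.54. It ranged from -2.95 to -2.50 with any 1 library left out. In shCtrl 26.4% of tested genes had a higher mean than Klb, and in shTopors 73.3% did. Klb (ENSMUSG00000029195) lies on the plus strand of mm10 chromosome 5, from 65348314 to 65384007 in GENCODE M21, and no other annotated gene overlaps it.

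Neither of the other Klotho genes reached 1 TPM in a knockdown library. Kl, which encodes alpha-Klotho, the co-receptor for FGF23, was listed at 0 in all 4 libraries. Lctl, a Klotho-related gene named here with its values already known, was at 1.10 and 1.47 TPM in shCtrl against 0.0218 and 0.0524 TPM in shTopors, and its mean over the 4 libraries was under the filter, so it was not tested.

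Fgfr3 encodes a receptor best known for restraining bone growth, and its splice forms bind FGF1 and several paracrine FGFs. Its level was 41.5 and 62.4 TPM in shCtrl against 10.4 and 12.3 TPM in shTopors. The groups were well apart and the knockdown libraries close together. Means were 52.0 ± 14.8 and 11.3 ± 1.35 TPM (SD, n = 2), 4.59-fold lower, with a log2 difference of -2.08 (SE 0.300, adjusted p = 0.0965 in limma) and an excess of -1.90. Only 0.459% of tested genes had a lower log2 difference. The log2 difference of Fgfr3 was -1.97 without shTopors 1, -2.19 without shTopors 2, -2.37 without shCtrl 1 and -1.79 without shCtrl 2. Fgfr3 (ENSMUSG00000054252) is a plus-strand gene of chromosome 5, from 33721674 to 33737068. It overlaps G630022F23Rik on the other strand, which was at 0.213 TPM or less in every library, and the pseudogene Fgfr3-ps was listed at 0.

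Fgfr2 gave the highest level of the system in every library. It encodes a receptor whose IIIb splice form is typical of epithelia and receives FGF7 and FGF10, and gene-level TPM does not separate its splice forms. The values were 134 and 224 TPM in shCtrl against 87.0 and 71.2 TPM in shTopors. The controls were 1.68-fold apart, and the higher knockdown library still lay below the lower control. Means were 179 ± 63.9 and 79.1 ± 11.1 TPM (SD, n = 2), 2.26-fold lower. The log2 difference was -1.13 (SE 0.305, adjusted p = 0.219 in limma), an excess of -0.94. The log2 difference of Fgfr2 was -1.27 without shTopors 1, -0.99 without shTopors 2, -1.5 without shCtrl 1 and -0.76 without shCtrl 2. Fgfr2 (ENSMUSG00000030849) is on the minus strand of chromosome 7, from 130162451 to 130266808 in RefSeq. GENCODE M21 carries its end on to 133123350 through a single transcript that spans other genes. Ate1, which lies within that span, was at 25.1 and 35.2 TPM in shCtrl against 18.8 and 35.4 TPM in shTopors, with overlapping groups.

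Fgfr4 encodes the receptor through which FGF15 acts on hepatocytes. It was at 36.3 and 37.7 TPM in shCtrl, nearly equal, and at 33.8 and 11.4 TPM in shTopors, which are 2.96-fold apart. The groups did not overlap, yet shTopors 1 was close to the controls and the low mean came from shTopors 2. The log2 difference was -0.87 (SE 0.466, adjusted p = 0.426 in limma), an excess of -0.69, with means of 37.0 ± 0.985 and 22.6 ± 15.8 TPM (SD, n = 2). Without shTopors 2 it was -0.13 and its excess turned to 0.07. The log2 difference was -1.61 without shTopors 1, -0.9 without shCtrl 1 and -0.84 without shCtrl 2. The order of the 2 knockdown libraries was opposite for Fgfr3 and Klb, whose lower knockdown value was in shTopors 1. Fgfr4 (ENSMUSG00000005320) is a plus-strand gene of chromosome 13, from 55152640 to 55168759.

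Fgfrl1, the receptor-like gene without a kinase, was at 4.28 and 5.64 TPM in shCtrl against 1.77 and 1.89 TPM in shTopors. Both knockdown values were low and alike. Means were 4.96 ± 0.966 and 1.83 ± 0.0835 TPM (SD, n = 2), 2.71-fold lower. The log2 difference was -1.06 (SE 0.293, adjusted p = 0.222 in limma), an excess of -0.88. At this low level the difference depended on the pseudocount, being -1.38 with 0.1 TPM and -0.54 with 5 TPM. With 1 library left out it was -1.03 without shTopors 1, -1.09 without shTopors 2, -1.23 without shCtrl 1 and -0.9 without shCtrl 2. Fgfrl1 (ENSMUSG00000008090) is a plus-strand gene of chromosome 5, from 108692382 to 108706924 in GENCODE M21. In RefSeq it starts at 108694229.

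Fgfr1, whose FGFR1c form is the usual partner of beta-Klotho for FGF21 in fat, was listed at 0 TPM in each of the 4 libraries. A listed 0 can be a failed estimate, and the TPM table does not settle whether it is one here. The lowest value among 16 widely used genes, chosen after the values were seen, was 8.12 TPM. Of 21892 protein-coding genes, 6483 were listed at 0 throughout. Fgfr1 (ENSMUSG00000031565) is a plus-strand gene of chromosome 8, from 25513654 to 25575718.

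**Figure D2:**
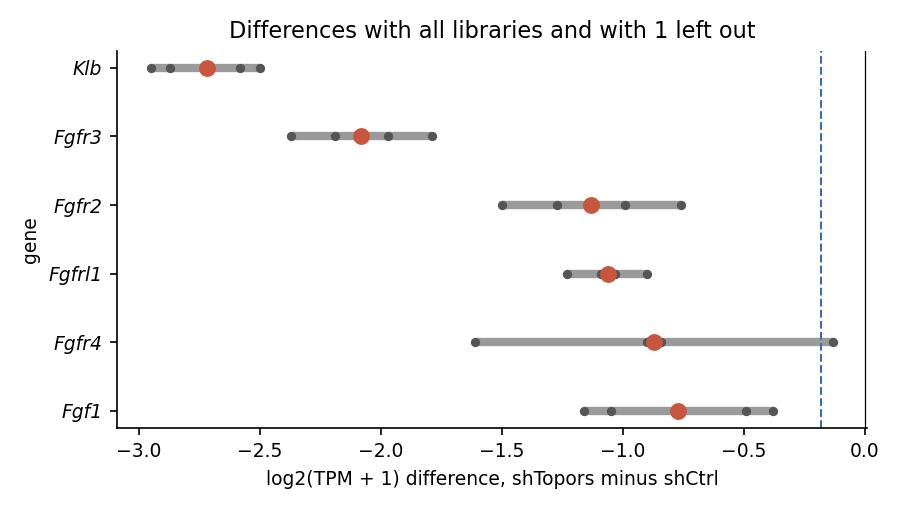
Log2(TPM + 1) difference, shTopors minus shCtrl, of the 6 tested genes: the large point is the value with all libraries, small points are the 4 values with 1 library left out, and the grey bar is their range. The dashed line is the median of all tested genes, and only the value of Fgfr4 without shTopors 2, at -0.13, lies to its right.

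Set side by side within a library, where TPM is per length, the receptors summed to 212 and 324 TPM in shCtrl and to 131 and 95.0 TPM in shTopors. Fgfr2 held most of that sum in every library, 63.2% and 69.1% in shCtrl and 66.3% and 75.0% in shTopors. Fgfr3 held 19.6% and 19.2% in shCtrl and 7.91% and 12.9% in shTopors, so its share was lower in both knockdown libraries. The share of Fgfr4 was 17.2% and 11.6% in shCtrl and 25.8% and 12% in shTopors, which overlap. In an exact two-sided permutation test over libraries the summed level, the Fgfr3 share and the ratio of Fgfr2 to Fgfr3 each had p = 0.33, the smallest that 2 against 2 allows, and 0.583 adjusted over 7 such quantities. The Fgfr2 and Fgfr4 shares each had p = 0.667 in the same exact test (adjusted p = 0.778). The ratio of Fgfr2 to Fgfr3 was 3.22 and 3.59 in shCtrl and 8.39 and 5.81 in shTopors.

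Relative to the receptors Klb was lower too, a description with no test, since Klb was selected on its lower level. The receptor sum is mostly Fgfr2, whose splice forms are not separated. Per 100 TPM of Fgfr1 to Fgfr4 there were 15.6 and 14.1 TPM of Klb in shCtrl and 3.4 and 5.96 TPM in shTopors. Against Fgfr4 alone the ratio of Klb was 0.910 and 1.21 in shCtrl and 0.132 and 0.495 in shTopors. Klb and Fgfr4 were thus near equal in control cells, in either order, while in shTopors 1 Fgfr4 exceeded Klb by much more than in shTopors 2. The order of levels in both controls began with Fgfr2 and Fgfr3 and ended with Fgf1 and Fgfrl1, with Klb and Fgfr4 between. In shTopors 1 the order was Fgfr2, Fgfr4, Fgf1, Fgfr3, Klb and Fgfrl1, and in shTopors 2 Fgfr3 and Fgfr4 followed Fgfr2 at 12.3 and 11.4 TPM.

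**Figure D3:**
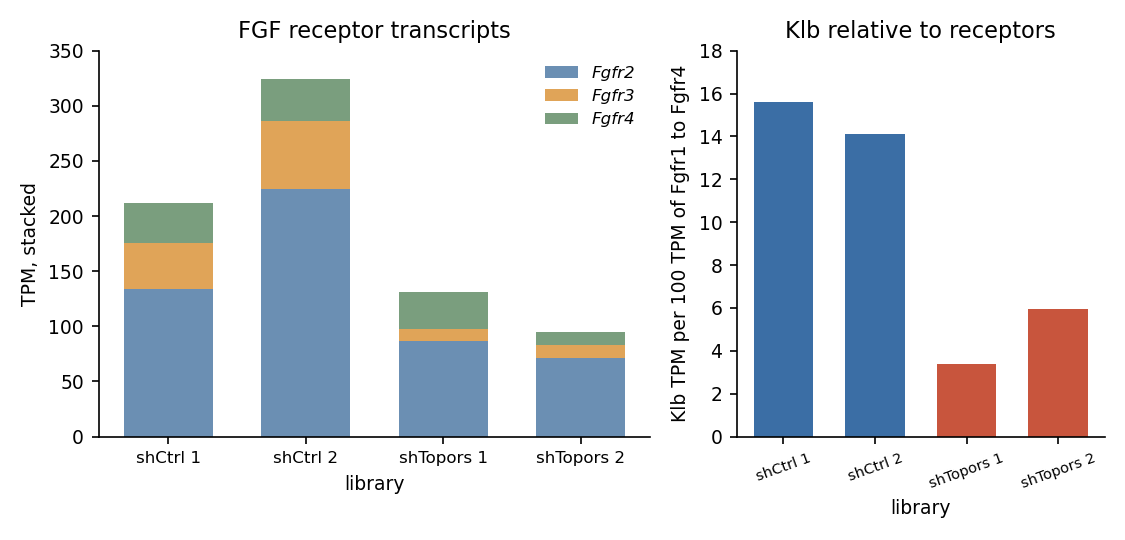
Left, stacked TPM of Fgfr2, Fgfr3 and Fgfr4 in each library (Fgfr1 is listed at 0). Right, TPM of Klb per 100 TPM of Fgfr1 to Fgfr4, at 15.6 and 14.1 in the shCtrl bars and at 3.4 and 5.96 in the shTopors bars.

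On the ligand side, Fgf1 was the 1 gene of 18 that reached 1 TPM in any library. FGF1 binds every FGF receptor and acts close to the cells that make it. Its transcript was at 15.3 and 23 TPM in shCtrl against 14.2 and 7.86 TPM in shTopors, and shTopors 1 lay just under shCtrl 1. Means were 19.1 ± 5.48 and 11 ± 4.49 TPM (SD, n = 2), a log2 difference of -0.77 (SE 0.366, adjusted p = 0.383 in limma) and an excess of -0.58. That difference was -1.05 without shCtrl 1, -0.49 without shCtrl 2 and -1.16 without shTopors 1. Without shTopors 2 the difference was -0.38 and its excess was -0.18. Relative to 100 TPM of receptors, Fgf1 was at 7.21 and 7.10 TPM in shCtrl against 10.8 and 8.28 TPM in shTopors, higher in both knockdown libraries (exact two-sided permutation p = 0.33, adjusted p = 0.583). Fgf1 (ENSMUSG00000036585) overlaps Arhgap26 on the other strand. Arhgap26 was at 4.14 and 4.51 TPM in shCtrl against 5.48 and 6.02 TPM in shTopors, and whether the authors' quantification used strand is not known here, so reads of the 2 genes may not be separable.

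Fgf21 was at 0.172 and 0.0538 TPM in shCtrl and was listed at 0 in both shTopors libraries, levels too low for a fold or a test. The gene (ENSMUSG00000030827) is on the chromosome 7 minus strand, from 45613886 to 45615490. Of the other 16 ligand genes, 9 were listed at 0 throughout, Fgf15 among them, and Fgf7, the highest, stayed at or below 0.935 TPM. Fgf18 was at 0.732 and 0.474 TPM in shCtrl against 0.251 and 0.106 TPM in shTopors, and Fgf20 at 0.292 TPM or less.

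Genes around the receptor system were read from lists chosen with earlier results of these data known. They held 117 genes, of which 77 were tested. None of the 77 passed in limma, and 16 had an unadjusted p under 0.05, against 1984 of 13509 for all genes. Both knockdown libraries lay below both controls for 33 of the 77, or 42.9%, against the 35.2% of all genes, and above them for 9, where the share of all genes was 14.6%. Their median log2 difference was -0.26.

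Adaptors and kinases downstream of the receptors were mostly near the median of all genes, apart from Grb2. Grb2, which links receptors and FRS2 to the RAS activator SOS, was at 35.5 and 33.9 TPM in shCtrl against 9.31 and 9.60 TPM in shTopors. Replicates agreed closely in both groups, and the knockdown mean was 3.67-fold lower. The log2 difference of Grb2 was -1.77 (SE 0.259, adjusted p = 0.0997 in limma). Gab1, a docking protein that binds GRB2, was at 5.16 and 5.39 TPM in shCtrl against 1.99 and 2.34 TPM in shTopors (log2 difference -0.99, SE 0.282, adjusted p = 0.224 in limma). Map2k1, which encodes the kinase MEK1, went the other way, with 83.3 and 96.3 TPM in shCtrl against 154 and 107.5 TPM in shTopors (log2 difference 0.52, SE 0.266, adjusted p = 0.413 in limma). Araf was at 77.3 and 81.0 TPM in shCtrl against 86.4 and 54.5 TPM in shTopors, which overlap. Of the 20 genes of this list, all tested, 11 were lower and 3 higher with no overlap, where the shares of all genes were 35.2% and 14.6%. The list's median log2 difference was -0.27.

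Feedback inhibitors and ERK target genes, which usually follow receptor activity, showed no common direction. Of 17 tested, 3 were lower and 3 higher with no overlap (35.2% and 14.6% of all genes were), and 11 overlapped. None of the 17 passed in limma, 2 had an unadjusted p under 0.05 (14.7% of all genes had), and their median log2 difference was -0.14. Dusp6, a phosphatase that switches off ERK, had 351 TPM in shTopors 1 and 105 TPM in shTopors 2, on either side of the 152 and 208 TPM of shCtrl, so the knockdown libraries enclosed the controls. Spry1, a Sprouty inhibitor of receptor signalling, was at 8.57 and 10.2 TPM in shCtrl against 5.27 and 4.11 TPM in shTopors (log2 difference -0.87, SE 0.291, adjusted p = 0.259 in limma). Etv4, an ETS factor induced by FGF signals, was at 3.29 and 1.61 TPM in shCtrl against 23 and 4.36 TPM in shTopors (log2 difference 1.76, SE 0.664, adjusted p = 0.303 in limma). One control library stood apart for the immediate early gene Fos, at 281 TPM in shCtrl 2 against 1.20 to 4.87 TPM in the other libraries, and for Egr1 (singled out on seeing its values) at 166 TPM against 13.2 to 16.9 TPM. Ier3, another early gene, was at 82.8 and 156 TPM in shCtrl against 92.4 and 105 TPM in shTopors.

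The bile acid side of the FGF15 axis was nearly silent at its end point, Cyp7a1, but not at every enzyme of the list. Cyp7a1, the rate-limiting enzyme of bile acid synthesis that this axis represses, and Cyp8b1 were below the filter, and Cyp7b1 was listed at 0. Cyp27a1 (named with its values known) was at 23.8 and 28.2 TPM in shCtrl against 12.2 and 27.0 TPM in shTopors, which overlap. Nr1h4, which encodes the bile acid receptor FXR, was at 120 and 167 TPM in shCtrl against 143 and 147 TPM in shTopors, and Hnf4a at 158 and 156 against 179 and 95.3 TPM, so both overlapped. Nr5a2, the LRH-1 gene, was at 2.72 and 7.61 TPM in shCtrl against 0.407 and 2.59 TPM in shTopors (log2 difference -1.33, SE 0.555, adjusted p = 0.334 in limma). Slc10a2, a bile salt uptake carrier, was at 9.79 and 18 against 6.29 and 7.72 TPM, and Mafg at 46.5 and 47.2 against 30.0 and 45.6 TPM. Of 7 tested genes 4 were lower with no overlap and none higher, where the shares of all genes were 35.2% and 14.6%. None of the 7 passed in limma, and their median log2 difference was -0.49. With no filter on low values, which brings in the nearly silent genes of the list, the median was -0.04, next to -0.05 for all genes.

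Known inducers and modulators of Fgf21 were lower or overlapping. Of 10 tested, 7 were lower with no overlap (35.2% of all genes were) and none higher, none passed in limma, 4 had an unadjusted p under 0.05 (14.7% of all genes had), and the median log2 difference was -0.71. Atf4, the main factor of the integrated stress response, was at 247 and 265 TPM in shCtrl against 169 and 219 TPM in shTopors, and Ddit3, its target, at 61.4 and 60.4 against 27.9 and 39.3 TPM. Creb3l3, a liver factor of the fasting response, was at 10.2 and 17.6 against 3.49 and 8.77 TPM. Thrb, a thyroid hormone receptor, was at 2.71 and 8.43 against 1.23 and 2.70 TPM, where the controls differed by more than the gap between the groups. Srebf1 was at 51.7 and 45.5 against 56.9 and 39.3 TPM. With shCtrl 2 left out the list's median was -0.44, while the median of all genes was -0.09.

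**Figure D4:**
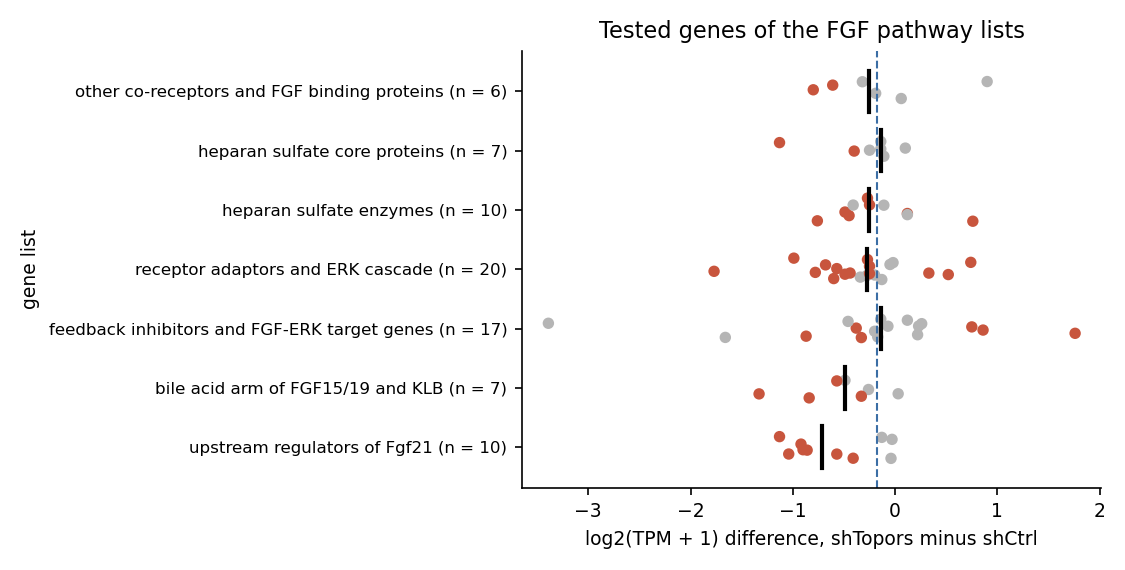
Log2(TPM + 1) difference, shTopors minus shCtrl, of each tested gene in 7 pathway lists, with a black bar at the list's median and a dashed line at the median of all tested genes. Red points are genes whose groups do not overlap and grey points genes whose groups overlap; the leftmost grey point is Fos at -3.39 and the leftmost red point is Grb2 at -1.77.

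The genes on either side of Klb had smaller differences. All 3 upstream neighbours were lower in shTopors with no overlap, as 35.2% of all genes tested were. The nearest tested protein-coding gene upstream, Rfc1, a replication factor subunit 12.6 kb away, was at 20.4 and 25.5 TPM in shCtrl against 19.4 and 9.50 TPM in shTopors (log2 difference -0.70, SE 0.372, adjusted p = 0.423 in limma). Wdr19 and Klhl5, 87.9 and 180 kb away, had log2 differences of -0.35 and -0.57. Downstream, Rpl9, a ribosomal protein gene 4.36 kb away, was at 1965 and 2212 TPM in shCtrl against 2801 and 2518 TPM in shTopors, a log2 difference of 0.35. Lias and Ugdh, 7.49 and 29.2 kb away, had overlapping groups and differences of -0.14 and -0.05. None of the 6 neighbours passed in limma, and each lay nearer to 0 than Klb by 2 log2 units or more.

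**Figure D5:**
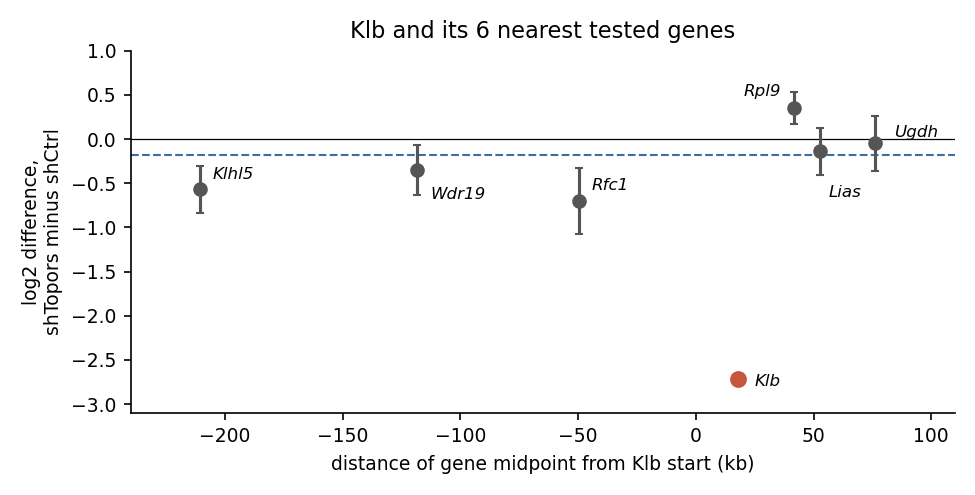
Log2(TPM + 1) difference, shTopors minus shCtrl, of Klb (red, at -2.72) and its 6 nearest tested protein-coding genes (grey, with standard errors from limma) against the distance of the gene's midpoint from the Klb start in kb. The neighbours lie between -0.70 and 0.35, and the dashed line is the median of all tested genes.

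The genes whose pattern over the 4 libraries was most like that of Klb were found by Euclidean distance of log2(TPM + 1) from the shCtrl mean, among 9427 genes averaging 5 TPM or more. They were Xdh at a distance of 0.223, Pipox at 0.252, Tgfa at 0.341, S100b at 0.393 and Sox5 at 0.515. Pipox, which encodes peroxisomal sarcosine oxidase, was at 7.69 and 13.9 TPM in shCtrl against 0.606 and 1.04 TPM in shTopors. S100b, a calcium-binding protein gene, was at 7.24 and 14.7 TPM in shCtrl against 0.507 and 1.18 TPM in shTopors. Sox5, a SOX family transcription factor gene, was at 9.59 and 11.7 TPM in shCtrl against 0.889 and 1.62 TPM in shTopors. A likeness over 4 libraries of 2 groups is mostly a like difference between the groups, and no test was made of it. Klb was selected on its lower level. Pipox, S100b and Sox5, with shTopors means of 0.821, 0.843 and 1.25 TPM, reached the 5 TPM filter only through shCtrl. Klb was 7.78-fold lower, Xdh 6.78-fold and Tgfa 6.11-fold, while Pipox, S100b and Sox5 were 13.12-, 12.98- and 8.51-fold lower. With 1 TPM added, which makes differences of low genes look smaller, their log2 differences were -2.65, -2.65 and -2.38, against -2.72 for Klb. Fgfr3, at a log2 difference of -2.08, was the member nearest to Klb in size.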

How the data were processed

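The authors deposited 1 table of TPM per gene for 4 libraries. Per the submitters' processing notes the build was mm10 and the tools StringTie, HISAT2, DESeq2 and HTSeq, with neither versions nor roles; which program wrote the TPM, and with what strand setting, is not stated. Values of 3 identifiers on 2 rows were summed, which left 52630 identifiers, of which 52483 were in GENCODE M21, and columns were assigned by name. Columns summed to between 999914 and 999943 TPM. Depth is unknown, so no counting interval was computed.

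Log2(TPM + 1) was tested in R 4.3.3 by limma 3.58.1 (empirical Bayes with a mean-variance trend), and p-values were adjusted by Benjamini-Hochberg over the 13509 genes averaging 1 TPM or more. Shares and ratios were tested by exact permutation with scipy 1.17.1. The limma step was tested on simulated data with changes larger than that of any tested member, so it does not cover differences of the reported size.

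The members and lists were chosen with earlier results of these data known. Named genes are the members, Topors, the 3 genes of each list with the highest mean TPM, and up to 2 per list with groups that do not overlap, 5 TPM or more in the higher group and the largest difference, together with the 5 genes most like Klb (provisional symbols left out) and its 3 nearest tested protein-coding genes on each side. Not every named marker is printed with its values. One gene that the rule names is not reported here. The replicate numbers name libraries and were not taken to pair them. Alternatives were pseudocounts of 0.1 and 5, no filter, a filter at 5 TPM, 2 scalings, 2 variance models, leaving out each library in turn and a replicate block. List medians under these settings were added after seeing the data.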

Additional observations from a re-analysis of the deposited data

How the results depend on the processing

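With 2 libraries per group and 2 residual degrees of freedom, counts of called genes moved with most settings. The log2 differences of Klb and the 5 other tested members stayed below 0 under all 12 or 13 alternatives each. Their groups did not overlap, so only the 2 scalings could have turned a sign, and the constant sign is no test of these differences. Relative to the median of all genes, Fgfr4 turned from -0.69 to 0.07 without shTopors 2, and Fgf1 moved from -0.58 to -0.18. Calls over all genes were 1 higher and 4 lower. They were 0 and 0 with no filter on low values, 0 and 1 with the 5 TPM filter, with median-of-ratios scaling and with quantile normalization, and 6 and 27 with a replicate block. With 1 library left out they ranged from 0 to 687 higher and from 0 to 1479 lower, the extremes coming from dropping shCtrl 2 (0 and 0) and shTopors 2 (687 and 1479); dropping shTopors 1 gave 246 and 901, and dropping shCtrl 1 gave 1 and 3. Fewer samples leave 1 residual degree of freedom, and the lone library is assumed to vary like the other group.

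Same-numbered libraries correlated at 0.199 in their deviations over genes, which with 2 pairs does not show pairing. Under the replicate block, Fgfr3 had an adjusted p = 0.0498 in limma at an unchanged log2 difference of -2.08, and no other tested member passed. With a robust empirical Bayes fit it was 0.0522. Fgfrl1 was left out by the filter at 5 TPM. The log2 difference of Klb was -2.13 with a pseudocount of 5. The difference of the Fgfr4 share, 4.50 percentage points, ranged from -2.40 to 11.4 with 1 library left out, so it has no stable direction, and that of Klb per 100 TPM of receptors, -10.2, from -11.4 to -8.89. After median-of-ratios scaling the medians of the heparan sulfate core protein and feedback lists were 0.04 each, and with no filter on low values that of the bile acid list moved from -0.49 to -0.04. No depth is known, so low values such as those of Fgf21 carry an error that cannot be given.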

Other observations

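Heparan sulfate is the sugar chain that most FGFs need beside their receptor, and transcripts of several of its core proteins were abundant in all libraries. Sdc4 was at 350.3 and 441 TPM in shCtrl against 352 and 377 TPM in shTopors, Agrn at 173 and 178 against 179 and 142 TPM, and Sdc1 at 124 and 124 against 161 and 66.7 TPM, all with overlapping groups. Sdc2 was at 39.1 and 61.4 TPM in shCtrl against 15.5 and 30.8 TPM in shTopors (log2 difference -1.13, SE 0.390, adjusted p = 0.267 in limma), and Hspg2 at 27.7 and 26.5 against 22.5 and 18.3 TPM. Of 7 tested core protein genes 2 were lower with no overlap (35.2% of all genes were), none passed in limma, and the median log2 difference was -0.14. Of 10 tested genes for enzymes that build or trim the chain, 5 were lower and 2 higher with no overlap (35.2% and 14.6% of all genes were). None of the 10 passed in limma, and their median was -0.26. Ndst1 was at 69.4 and 67.7 TPM in shCtrl against 55.6 and 59.7 TPM in shTopors, Ext2 at 63.8 and 61.8 against 41.5 and 50.6 TPM, Ext1 at 37.5 and 35.2 against 33.4 and 19.6 TPM and Extl3 at 23.2 and 28.2 against 10.7 and 19.9 TPM.

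Fgf13, an intracellular FGF that does not act through these receptors, was at 2.58 and 2.53 TPM in shCtrl against 4.55 and 14.3 TPM in shTopors (log2 difference 1.37, SE 0.476, adjusted p = 0.268 in limma). The 2 knockdown libraries were both above the controls and far apart. Among adhesion and binding partners of the receptors, Cdh2, the N-cadherin gene, was at 139 and 115 TPM in shCtrl against 76.1 and 69.1 TPM in shTopors (log2 difference -0.80, SE 0.239, adjusted p = 0.233 in limma), while Ncam1 (74.4 and 62.6 against 63.1 and 47 TPM) and Flrt3 (11.1 and 16.6 against 11.6 and 12 TPM) overlapped. Of 6 tested genes of that list 2 were lower with no overlap (35.2% of all genes were) and none passed in limma. Fgfbp1, which encodes an FGF carrier and was singled out on seeing its values, reached 3.99 TPM in shTopors 1, while shCtrl 1, shCtrl 2 and shTopors 2 had 0.172, 0.287 and 0.0519 TPM.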
